A study of Mus musculus with 6 samples.

Results

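The immunoglobulin heavy and light chain genes of the mouse cochlea were described as a set of 44 genes, 11 constant regions and 33 variable segments. The set was chosen by gene symbol and by measured level: of 51802 gene symbols, 379 named an immunoglobulin heavy, kappa or lambda gene segment, and the 44 kept had a mean summed count of 20 or more over the 6 samples. Since the genes were selected on their mean count, their presence in the cochlea is a description and not a test. The samples were cochleae of C57/BL6J mice at 2 months of age, 3 from wildtype mice (numbered 3, 4 and 5) and 3 from *Pou4f3(Δ/+)* mice (numbered 1, 2 and 3), profiled by bulk RNA sequencing. *Pou4f3(Δ/+)* mice carry 1 copy of a knock-in *Pou4f3* allele, a model of the human deafness DFNA15, in which a small deletion shifts the reading frame and truncates this hair cell transcription factor. The allele is constitutive, so it is present in blood-forming cells as well as in the ear. The labels do not say whether a sample was 1 animal or a pool, so p-values measure the spread between these samples, which may be partly technical.

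An antibody is built from 2 heavy and 2 light chains, each with a variable part that binds antigen and a constant part that sets its class. In a developing B cell the Rag recombinase joins 1 variable segment out of many to short D and J segments, so a B cell and all its offspring use the same heavy and the same light chain segment. A naive B cell carries IgM and IgD on its surface, from transcripts of the Ighm and Ighd constant regions. After activation, class switching replaces Ighm by the constant region of an IgG, IgA or IgE antibody, and a plasma cell turns to the secreted form of its heavy chain and makes it in very large amounts. In the mouse most light chains are kappa, and a small part are lambda. The temporal bone around the cochlea holds marrow, where B cells form, and vessels, and a whole-cochlea preparation can include both.

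Summed counts were between 14295069 and 17696784 per sample. Pou4f3 had 68, 72 and 88 counts in wildtype samples 3, 4 and 5 and 66, 97 and 52 counts in *Pou4f3(Δ/+)* samples 1, 2 and 3, and these totals do not separate the 2 alleles. *Pou4f3(Δ/+)* samples 1 and 2 lay away from the rest on principal component 1 of all genes (32.5% of the variance, scores 23.2 and 40.2 against -21.5 to -11.7) and had the lowest share of mitochondrial counts (3.84% and 4.0% against 4.26% to 4.54%). Blood cell genes were abundant beside the cochlear genes Coch, Otos and Myo7a: the 7 neutrophil markers summed to 13455 to 15774 FPKM in wildtype and 13647 to 16342 FPKM in *Pou4f3(Δ/+)*, the 7 erythroid markers to 11547 to 13419 FPKM and 12459 to 17782 FPKM, and the 6 macrophage markers to 396 to 434 FPKM and 349 to 483 FPKM. FPKM values are divided by transcript length and by the sample total, so levels of different genes can be compared.

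The 44 genes together took 0.0616%, 0.235% and 0.0487% of the counts in wildtype samples 3, 4 and 5, and 0.0938%, 0.195% and 0.0555% in *Pou4f3(Δ/+)* samples 1, 2 and 3. The share was highest in wildtype sample 4 and *Pou4f3(Δ/+)* sample 2, 1 sample of each genotype, and the genotypes overlapped. On the log2 scale of CPM (counts scaled to the library total, here with TMM), the *Pou4f3(Δ/+)* mean was 0.17 above the wildtype mean against a pooled SD of 1.08 (n = 3 and 3), so the difference was smaller than the spread between samples. In such bulk samples, more cells that make antibody and more RNA per cell cannot be told apart.

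Ighm, the constant region of IgM, was the most abundant heavy chain gene in all 6 samples. Its level was 220.1, 977 and 162 FPKM in wildtype samples 3, 4 and 5, and 321, 719 and 208 FPKM in *Pou4f3(Δ/+)* samples 1, 2 and 3. The genotypes overlapped, with a wildtype mean of 453 ± 455 FPKM and a *Pou4f3(Δ/+)* mean of 416 ± 269 FPKM (SD, n = 3). Igkc, the single kappa constant region, had nearly the same order of samples, with 193, 942 and 160.45 FPKM in wildtype and 302, 708 and 146 FPKM in *Pou4f3(Δ/+)*. Ighd, the constant region of IgD, came next among the heavy chain genes in 4 of the 6 samples, at 29.9, 25.7 and 24.8 FPKM in wildtype and 61.2, 78.3 and 16.9 FPKM in *Pou4f3(Δ/+)*. Ighd was high in *Pou4f3(Δ/+)* samples 1 and 2 and was not high in wildtype sample 4, where Ighm was highest. Ighm is annotated on chromosome 12 from 113418558 to 113422730 and Ighd beside it from 113406604 to 113416324, both on the minus strand (GRCm38), and the switched constant regions follow from 113361232 down to 113254830.

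**Figure D1:**
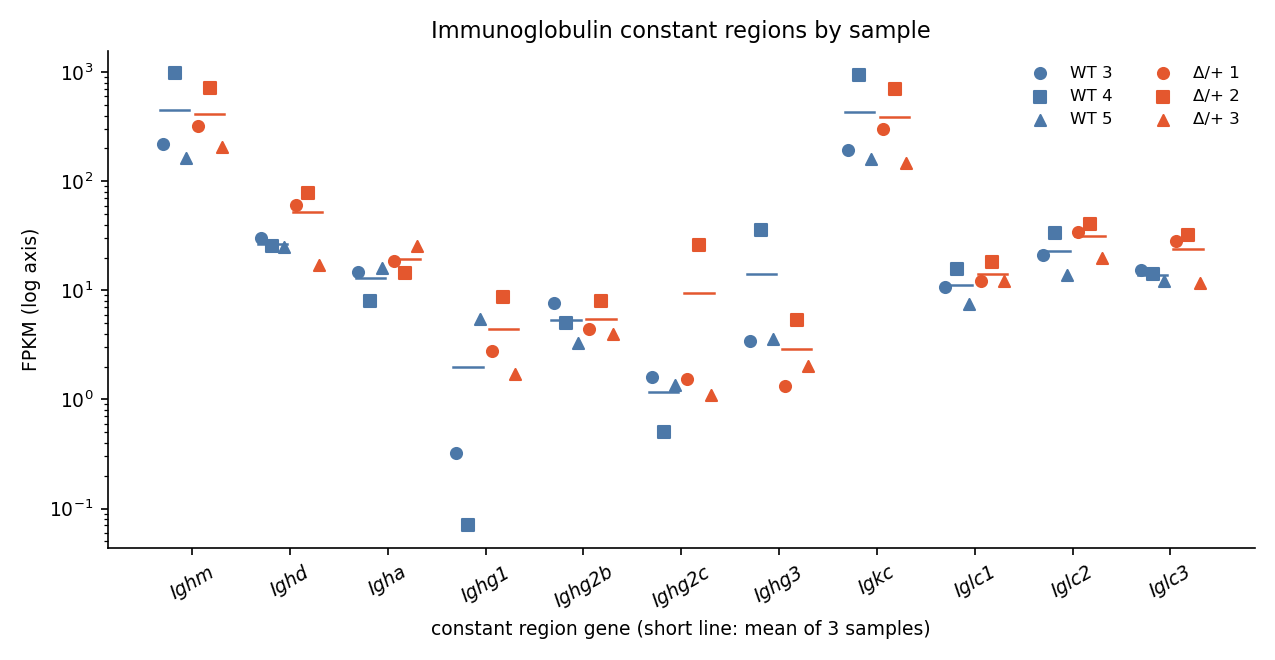
Levels of the 11 constant region genes in FPKM on a log axis, 1 point per sample, with a short line at the mean of the 3 wildtype (blue) and the 3 *Pou4f3(Δ/+)* (red) samples. Ighm and Igkc lie above all other constant regions in every sample, and the square symbols, wildtype sample 4 and *Pou4f3(Δ/+)* sample 2, are their highest points.

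The files list Ighm as 2 transcripts that differ at the 3′ end of the coding sequence, where the membrane form splices on to 2 further exons that anchor IgM in the cell surface. Their sequences are shown because the results differ between these 2 forms. The last 30 shared bases are in lower case and the coding bases found in 1 form only are in capitals (62 bases in the secreted and 125 in the membrane form), both 5′ to 3′ from the GENCODE M21 transcripts.
Ighm-201, secreted: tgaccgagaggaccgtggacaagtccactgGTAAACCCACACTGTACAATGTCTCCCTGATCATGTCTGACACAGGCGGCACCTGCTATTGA
Ighm-202, membrane: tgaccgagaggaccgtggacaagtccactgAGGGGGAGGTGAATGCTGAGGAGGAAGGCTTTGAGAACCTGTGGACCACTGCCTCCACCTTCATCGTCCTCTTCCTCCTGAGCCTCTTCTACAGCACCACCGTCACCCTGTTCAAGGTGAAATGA
Both forms start at 113422730 on the minus strand. The membrane form has 6 exons and ends at 113418558, and the secreted form has 4 exons and ends at 113420741.

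The 2 forms of Ighm were high in different samples. The membrane form was at 125, 134 and 115 FPKM in wildtype samples 3, 4 and 5, and at 224, 261 and 144 FPKM in *Pou4f3(Δ/+)* samples 1, 2 and 3. All 3 *Pou4f3(Δ/+)* values lay above the wildtype values, sample 3 by a small margin, and the mean of samples 1 and 2 was 1.87 times that of the other 4. The secreted form was at 94.9, 843 and 47.1 FPKM in wildtype and at 97.1, 459 and 63.9 FPKM in *Pou4f3(Δ/+)*. It stood out in wildtype sample 4 and *Pou4f3(Δ/+)* sample 2, whose mean was 8.59 times that of the other 4 samples. The secreted form therefore made up 86.2% of Ighm FPKM in wildtype sample 4 and 63.8% in *Pou4f3(Δ/+)* sample 2, against 29.0% to 43.1% in the others. These samples were picked out by their values, and no test was made between them. The division of reads between 2 forms that share 1305 coding bases was estimated by the authors' counting program.

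Jchain, which links IgM and IgA into polymers before secretion, followed the secreted form. Its level was 8.59, 81.6 and 6.09 FPKM in wildtype samples 3, 4 and 5, and 7.71, 45.9 and 8.83 FPKM in *Pou4f3(Δ/+)* samples 1, 2 and 3. The 2 samples with high secreted Ighm were the 2 with high Jchain, and *Pou4f3(Δ/+)* sample 1, with high membrane Ighm, was not among them. Ighd counts were almost all of the membrane form, with at most 0.335% assigned to the secreted form in any sample. In contrast, the secreted form held 94.0% to 100% of Igha counts, 94.7% to 100% of Ighg1 counts, 83.2% to 100% of Ighg2b counts and 76.6% to 97.9% of Ighg3 counts.

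**Figure D2:**
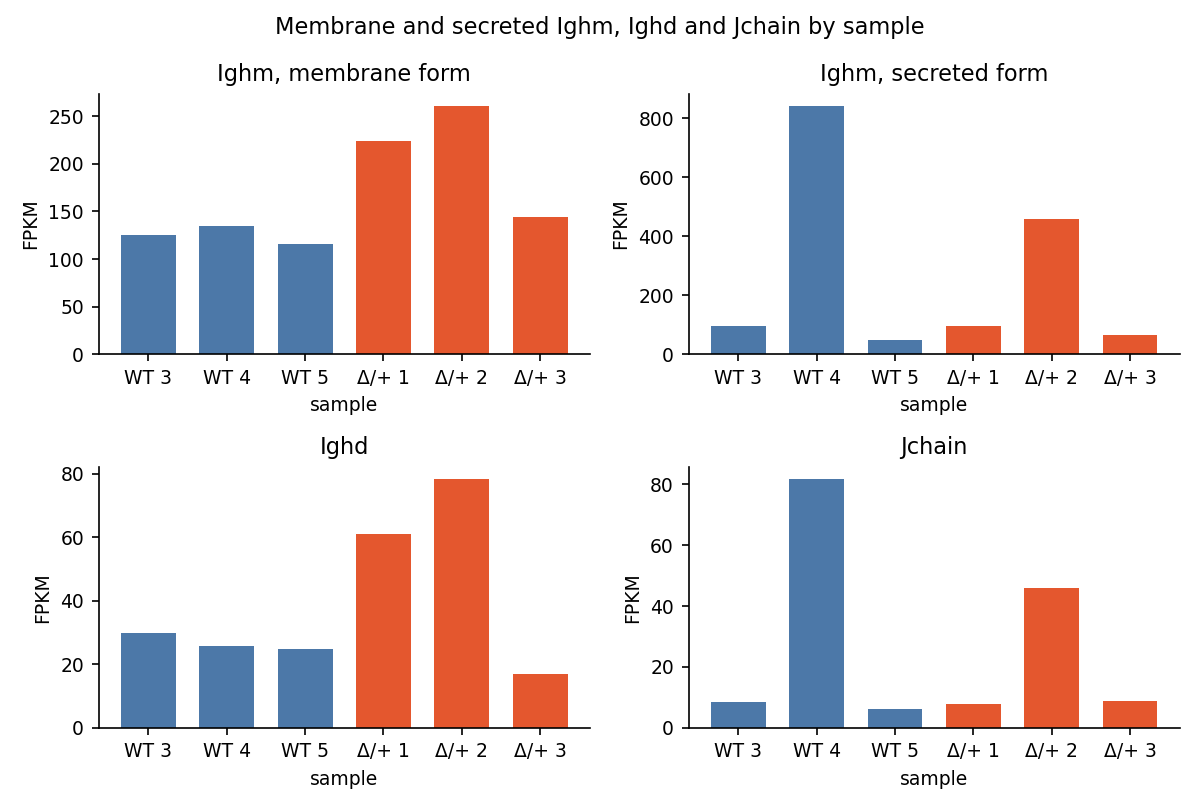
Bars give the FPKM of the membrane and the secreted form of Ighm, of Ighd and of Jchain in each of the 3 wildtype (WT, blue) and 3 *Pou4f3(Δ/+)* (Δ/+, red) samples. Membrane Ighm and Ighd are highest in Δ/+ 1 and Δ/+ 2, while secreted Ighm and Jchain are highest in WT 4 and Δ/+ 2.

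The switched isotypes were low beside IgM. The 5 switched constant regions together were at 27.7, 49.2 and 29.8 FPKM in wildtype samples 3, 4 and 5, and at 28.8, 62.3 and 34.4 FPKM in *Pou4f3(Δ/+)* samples 1, 2 and 3. Ighm was 7.94, 19.9 and 5.44 times the switched level in wildtype and 11.1, 11.5 and 6.04 times in *Pou4f3(Δ/+)*, on the FPKM scale. The ratio was highest in wildtype sample 4 and the genotypes overlapped. In counts, the log2 ratio of switched isotypes to Ighm was 0.04 higher in *Pou4f3(Δ/+)*, with a pooled SD of 0.73, and was -0.46 without wildtype sample 4. IgM was therefore in excess over the switched classes in each sample, and this excess did not separate the genotypes.

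Igha, the constant region of the mucosal antibody IgA, was at 14.7, 7.95 and 16.1 FPKM in wildtype samples 3, 4 and 5, and at 18.7, 14.3 and 25.6 FPKM in *Pou4f3(Δ/+)* samples 1, 2 and 3. It was the leading switched isotype in 4 samples and was lowest in wildtype sample 4, where secreted Ighm was highest. Ighg3, an IgG class made early in responses to polysaccharides, led in wildtype sample 4 with 35.6 FPKM, against 3.42 and 3.57 FPKM in wildtype samples 3 and 5 and 1.32, 5.34 and 2.03 FPKM in *Pou4f3(Δ/+)*. Ighg2c, another IgG class, led in *Pou4f3(Δ/+)* sample 2 with 25.9 FPKM, against 0.5 to 1.62 FPKM in the other 5 samples. The IgG classes took 83.8% and 77.0% of the switched FPKM in these 2 samples and 25.7% to 47.1% in the other 4. Ighg1 was between 0.07 and 8.77 FPKM and was highest in *Pou4f3(Δ/+)* sample 2, and Ighg2b was between 3.27 and 8.0 FPKM with no sample apart. Each IgG gene thus had its own order of samples. Ighg2b, Ighg2c and the other IgG genes are close relatives, so reads shared between them may have been divided by the counting program.

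Lambda light chains were the smaller class. The 3 lambda constant regions together were at 47.4, 63.4 and 33.6 FPKM in wildtype samples 3, 4 and 5, and at 74.5, 91.0 and 43.9 FPKM in *Pou4f3(Δ/+)* samples 1, 2 and 3. Lambda made up 19.7%, 6.31% and 17.3% of the light chain constant FPKM in wildtype and 19.8%, 11.4% and 23.1% in *Pou4f3(Δ/+)*. The share was lowest in the 2 samples with the most Igkc, and in counts it was 3.60 percentage points higher in *Pou4f3(Δ/+)* with a pooled SD of 6.48 points. The difference was -0.35 points without wildtype sample 4 and 6.91 points without *Pou4f3(Δ/+)* sample 2. Iglc3 was at 15.5, 14.1 and 12.2 FPKM in wildtype and at 28.2, 32.1 and 11.8 FPKM in *Pou4f3(Δ/+)*. Like Ighd, Iglc3 was high in *Pou4f3(Δ/+)* samples 1 and 2 and lowest of all in sample 3. Iglc1 (7.44 to 18.1 FPKM) and Iglc2 (13.9 to 40.8 FPKM) also overlapped between the genotypes. Igkc lies on chromosome 6 from 70726435 to 70726966, and Iglc1, Iglc3 and Iglc2 on chromosome 16 from 19061618, 19065230 and 19198396.

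Variable segments were counted far less than constant regions. The 33 variable segments held 843, 3276 and 697 counts in wildtype samples 3, 4 and 5, and 1239, 2944 and 686 counts in *Pou4f3(Δ/+)* samples 1, 2 and 3, that is 0.0862, 0.108 and 0.0908 counts per constant region count in wildtype and 0.0807, 0.108 and 0.0920 in *Pou4f3(Δ/+)*. Per length, the ratio of variable to constant FPKM was 0.25, 0.301 and 0.258 in wildtype and 0.233, 0.311 and 0.271 in *Pou4f3(Δ/+)*. The genotypes differed by only -0.03 in the log2 ratio of counts, with a pooled SD of 0.19. The order of samples depended on the minimum count. Among the 33 segments the ratio was highest in wildtype sample 4 and *Pou4f3(Δ/+)* sample 2, where most of these segments were highest, and over all matching genes it was 0.164, 0.141 and 0.175 in wildtype and 0.163, 0.162 and 0.172 in *Pou4f3(Δ/+)*, lowest in those 2 samples. The ratio was lowest for the heavy chain, at 0.0888 to 0.205 heavy variable FPKM per heavy constant FPKM, and higher for kappa, at 0.325 to 0.447, and lambda, at 0.471 to 0.944. The 13 heavy segments in this ratio were those of 183 that reached the minimum count.

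Of 346 variable segments with a matching symbol, 13 heavy, 17 kappa and 3 lambda segments reached the minimum, and 107 heavy, 101 kappa and 3 lambda segments had any count. The 20 matching D segments had none. A few segments took much of the signal, and they were different ones in different samples. Over all matching heavy segments, the leading segment took 7.65%, 15.5% and 13.7% of counts in wildtype samples 3, 4 and 5 and 8.59%, 15.5% and 7.41% in *Pou4f3(Δ/+)* samples 1, 2 and 3. The leading segments were Ighv1-9, Ighv1-80 and Ighv1-55 in wildtype and Ighv1-55, Ighv1-26 and Ighv11-2 in *Pou4f3(Δ/+)*. In order of abundance, 50% of the heavy counts came from 12, 5 and 11 segments in wildtype and from 14, 7 and 16 segments in *Pou4f3(Δ/+)*.

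Kappa segments were divided in the same way. Igkv4-55 led in wildtype sample 4 with 24.9% of 2327 kappa counts (95% Wilson interval 23.2% to 26.7%), followed by Igkv3-2 with 22.5%. Igkv19-93 led in *Pou4f3(Δ/+)* sample 2 with 29.2% of 2575 kappa counts (27.5% to 31.0%), followed by Igkv10-96 with 9.48%. In the other 4 samples the leading kappa segment was Igkv10-96 or Igkv1-135 and took 8.19% to 12.9%. The 5 leading kappa segments together took 61.7% in wildtype sample 4 and 57.0% in *Pou4f3(Δ/+)* sample 2, against 29.6% to 36.4% in the others. The inverse Simpson index, the number of equally used segments that would give the same concentration, was 7.95 and 9.06 in these 2 samples and 24.7 to 34.2 in the other 4. Kappa use was thus concentrated in the 2 samples with high secreted Ighm, on different segments. The reads carried no molecular identifiers, so such intervals hold the error of counting alone.

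The last 120 coding bases of the 2 leading heavy and 2 leading kappa segments of each of these samples are shown, since they mark how the segments differ. Capitals run from the last in-frame cysteine codon, the conserved cysteine before the junction with the D or J segment, to the end of the annotated segment.
Igkv4-55 (chromosome 6, wildtype sample 4): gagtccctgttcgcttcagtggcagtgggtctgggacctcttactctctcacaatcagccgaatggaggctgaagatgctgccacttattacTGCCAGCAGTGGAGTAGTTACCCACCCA
Igkv3-2 (chromosome 6, wildtype sample 4): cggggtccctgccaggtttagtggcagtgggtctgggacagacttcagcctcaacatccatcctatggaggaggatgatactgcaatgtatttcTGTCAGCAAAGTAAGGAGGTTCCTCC
Ighv1-80 (chromosome 12, wildtype sample 4): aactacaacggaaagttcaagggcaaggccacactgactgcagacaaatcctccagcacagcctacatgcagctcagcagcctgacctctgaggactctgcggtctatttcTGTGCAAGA
Ighv1-76 (chromosome 12, wildtype sample 4): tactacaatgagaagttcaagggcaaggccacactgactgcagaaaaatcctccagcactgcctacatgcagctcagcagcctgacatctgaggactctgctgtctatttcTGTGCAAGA
Igkv19-93 (chromosome 6, *Pou4f3(Δ/+)* sample 2): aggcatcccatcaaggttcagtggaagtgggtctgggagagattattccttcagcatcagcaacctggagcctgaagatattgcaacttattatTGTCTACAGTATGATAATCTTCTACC
Igkv10-96 (chromosome 6, second in *Pou4f3(Δ/+)* sample 2 and first in wildtype samples 3 and 5): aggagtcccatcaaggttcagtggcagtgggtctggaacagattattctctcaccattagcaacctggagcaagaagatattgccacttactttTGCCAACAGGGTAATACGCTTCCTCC
Ighv1-26 (chromosome 12, *Pou4f3(Δ/+)* sample 2): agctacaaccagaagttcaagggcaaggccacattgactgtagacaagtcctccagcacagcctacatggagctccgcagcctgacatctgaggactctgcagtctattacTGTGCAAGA
Ighv2-3 (chromosome 12, *Pou4f3(Δ/+)* sample 2): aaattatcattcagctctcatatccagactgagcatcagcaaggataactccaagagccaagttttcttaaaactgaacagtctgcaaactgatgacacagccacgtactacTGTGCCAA
Over the last 280 coding bases, Igkv4-55 and Igkv3-2 were 69.3% identical, Igkv4-55 and Igkv19-93 65.7%, and Ighv1-80 and Ighv1-76 89.6%. Ighv1-26 was 54.6% identical to Ighv2-3, and Igkv19-93 was 77.9% identical to Igkv10-96. The pairs that led in the same sample were therefore not near-identical copies. In contrast, 21 of the 33 variable segments had another matching segment at 95% identity or more (median of the nearest 95.7%, range 57.1% to 98.6%), so the counts of single segments are uncertain where reads fit several.

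In wildtype sample 4, Igkv4-55 had 579 counts, against 66 and 9 in wildtype samples 3 and 5 and 28, 26 and 6 in *Pou4f3(Δ/+)* samples 1, 2 and 3. Igkv3-2 had 524 counts there, against 0, 9, 19, 27 and 7 in the others in the same order. Ighv1-80 had 260 counts there, against 4 to 13 in the other 5 samples. Igkv3-2 and Ighv1-80 were thus high in this sample alone, while Igkv4-55 was also the second kappa segment of wildtype sample 3, with 7.63% of its kappa counts. Ighv1-76 had 244 counts in wildtype sample 4 and 2 to 9 elsewhere, and Ighv1-53 had 181 counts there and 3 to 30 elsewhere.

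In *Pou4f3(Δ/+)* sample 2, Igkv19-93 had 752 counts, against 29, 113 and 36 in wildtype samples 3, 4 and 5 and 48 and 17 in *Pou4f3(Δ/+)* samples 1 and 3. Ighv1-26 had 246 counts there, against 8 to 38 in the other 5 samples, and Ighv2-3 had 241, against 1 to 3. Igkv6-15 had 206 counts there and 2 to 32 elsewhere. The segments that led in this sample were not those that led in wildtype sample 4. Some segments, such as Ighv1-76 and Ighv2-3, reached the minimum count through 1 sample, so how many of the set were concentrated there is partly fixed by the choice of members. By contrast Ighv1-55 was spread out, with 11, 45 and 68 counts in wildtype and 85, 67 and 26 counts in *Pou4f3(Δ/+)*. Igkv1-135 was also spread, with 60, 37 and 54 counts in wildtype and 117, 136 and 44 counts in *Pou4f3(Δ/+)*.

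Among the lambda segments, Iglv1 had 149, 209 and 77 counts in wildtype and 172, 185 and 174 counts in *Pou4f3(Δ/+)*. Iglv2 had 16 to 68 counts and Iglv3 15 to 44 counts over the 6 samples. None was confined to 1 sample. Iglv1 and Iglv2 were 97.5% identical, so their separate counts are uncertain.

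**Figure D3:**
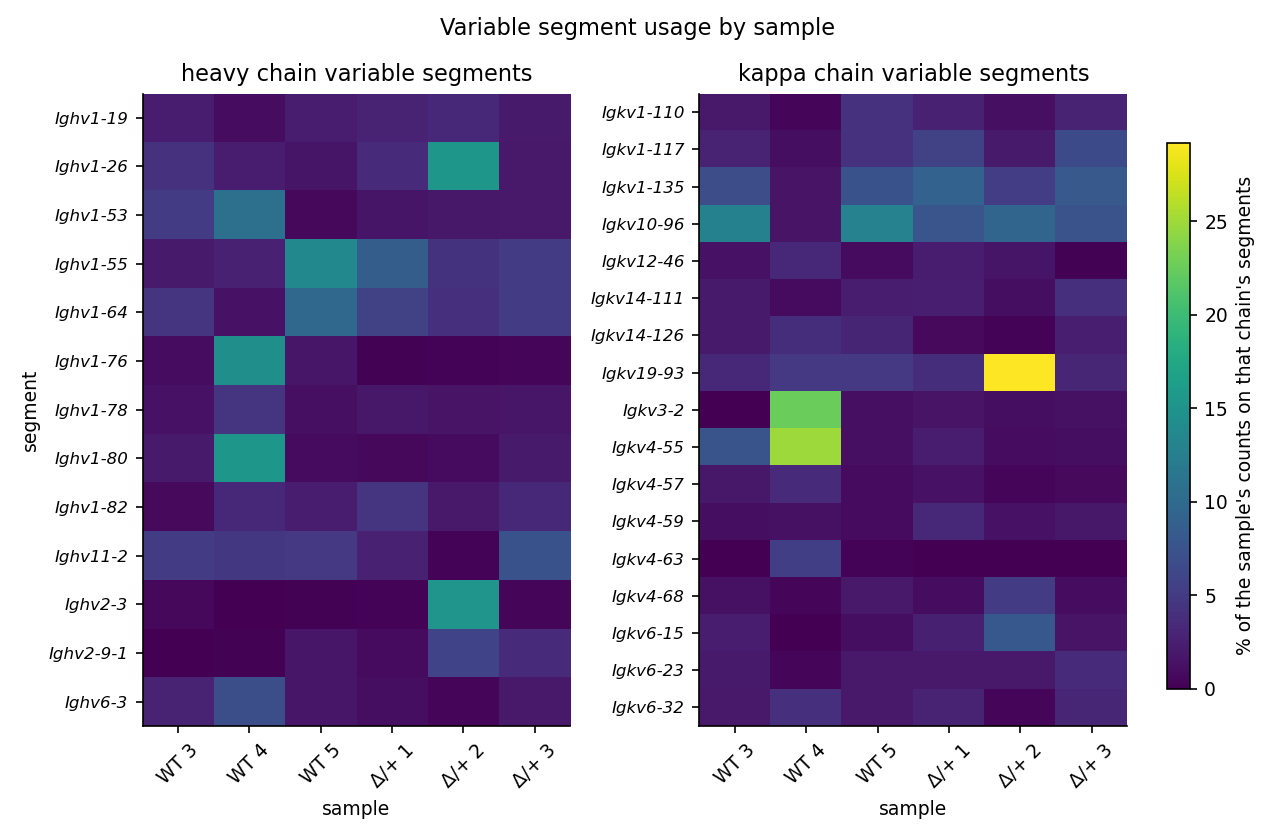
Each cell gives a segment's percentage of the counts on all heavy (left) or all kappa (right) variable segments of that sample, for the 13 heavy and 17 kappa segments of the set. WT 4 and Δ/+ 2 each hold a few bright cells on different segments, up to 24.9% for Igkv4-55 and 29.2% for Igkv19-93, while the other 4 samples are more even.

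No immunoglobulin gene passed the test between genotypes. Of the 44 genes, 40 passed the filter on low counts, and 0 had an adjusted p under 0.05 in edgeR's quasi-likelihood test (smallest 0.643, largest 0.981), as for all 17136 genes tested, of which 0% were called. At an unadjusted p under 0.05 there were 12 of the 40, 7 higher and 5 lower in *Pou4f3(Δ/+)*, against 7.64% of all genes tested (3.50% higher and 4.14% lower). The 12 became 5 without *Pou4f3(Δ/+)* sample 2 and 7 without sample 1, 6 with limma-trend and 25 of all 44 without a filter on low counts. These counts come from other fits, whose figures over all genes are not given, so they cannot be set against 7.64%. Of the 12, Ighv1-80, Ighv6-3, Igkv14-126, Igkv6-15, Igkv6-23 and Iglv3 averaged under 20 counts in the genotype where they were lower and so met the minimum mean count for members through the other genotype. The share is therefore partly fixed by the choice of members, and nothing is read from it or from the median of those tested. The 4 genes left out were Ighv2-3, Ighv1-76, Ighv2-9-1 and Igkv4-63, all counted mostly in 1 sample. The median log2 fold change of the 40 was 0.46, with 25 higher and 15 lower, against -0.00 over all genes tested. DESeq2 also called 0 of the members it tested, against 0.330% of all genes.

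The genotypes did not overlap for 4 members. In CPM, every *Pou4f3(Δ/+)* sample lay above every wildtype sample for 2 of the 44, Igkv1-117 and Igkv6-23, and below for 2, Igkv14-126 and Ighv1-76, against 6.07% and 6.59% of all genes tested. Igkv14-126 and Ighv1-76 reached the minimum mean count of 20 through wildtype sample 4 and Igkv6-23 through *Pou4f3(Δ/+)* sample 2, and Ighv1-76 was not tested, so nothing is read from either count. Igkv1-117 had 25, 24 and 31 counts in wildtype samples 3, 4 and 5 and 74, 54 and 35 counts in *Pou4f3(Δ/+)* samples 1, 2 and 3, and its log2 fold change was 1.03 (SE 0.29). Igkv6-23 had 18, 9 and 15 counts in wildtype and 25, 50 and 19 counts in *Pou4f3(Δ/+)*, and the log2 fold change was 1.2 (SE 0.45). Igkv14-126 had 18, 90 and 22 counts in wildtype and 10, 7 and 13 counts in *Pou4f3(Δ/+)*, and the log2 fold change was -2.15 (SE 0.72). Without wildtype sample 4 that of Igkv14-126 was -0.88, and without *Pou4f3(Δ/+)* sample 2 that of Igkv6-23 was 0.65. All 3 had an adjusted p of 0.643 in edgeR's test.

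Several of the largest fold changes rested on single samples. The log2 fold change of Igkv4-55 was -3.56 (SE 1.27) and became -0.81 without wildtype sample 4. Ighv1-80 went from -3.28 (SE 1.36) to 0.54, Ighv6-3 from -2.29 (SE 0.96) to -0.09 and Ighg3 from -2.19 (SE 0.92) to -0.20 without the same sample. In the other direction, Igkv6-15 went from 3.10 (SE 1.11) to 0.97 and Ighg2c from 3.01 (SE 1.14) to 0.16 without *Pou4f3(Δ/+)* sample 2. The 2 most abundant genes were near 0, Ighm at -0.07 (SE 0.64) and Igkc at -0.14 (SE 0.72), and both changed sign without wildtype sample 4, to 1.10 and 1.13.

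Other members had smaller fold changes with smaller errors. The log2 fold change was 0.97 (SE 0.44) for Ighd, 1.00 (SE 0.37) for Igkv1-135, 0.79 (SE 0.33) for Iglc3, 0.87 (SE 0.37) for Iglv3 and 0.59 (SE 0.27) for Igha. All of these were highest in *Pou4f3(Δ/+)* sample 1 or 2 except Igha, which was highest in sample 3. Without *Pou4f3(Δ/+)* sample 2 the values of Ighd, Igkv1-135 and Iglc3 were 0.54, 0.64 and 0.52, and that of Igha was 0.34 without wildtype sample 4 and 0.39 without *Pou4f3(Δ/+)* sample 3. Without *Pou4f3(Δ/+)* sample 3, edgeR called 3 of the 40 members, Ighd, Igkv1-135 and Iglc3, all higher, against 1.10% of all genes. Without samples 1 and 2, the fold change of all 3 turned negative, to -0.68, -0.06 and -0.27, with 1 *Pou4f3(Δ/+)* sample left. In these 3 genes the higher *Pou4f3(Δ/+)* mean came from samples 1 and 2, the same samples that lay away on principal component 1, and the part of that separation in the result was not tested.

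**Figure D4:**
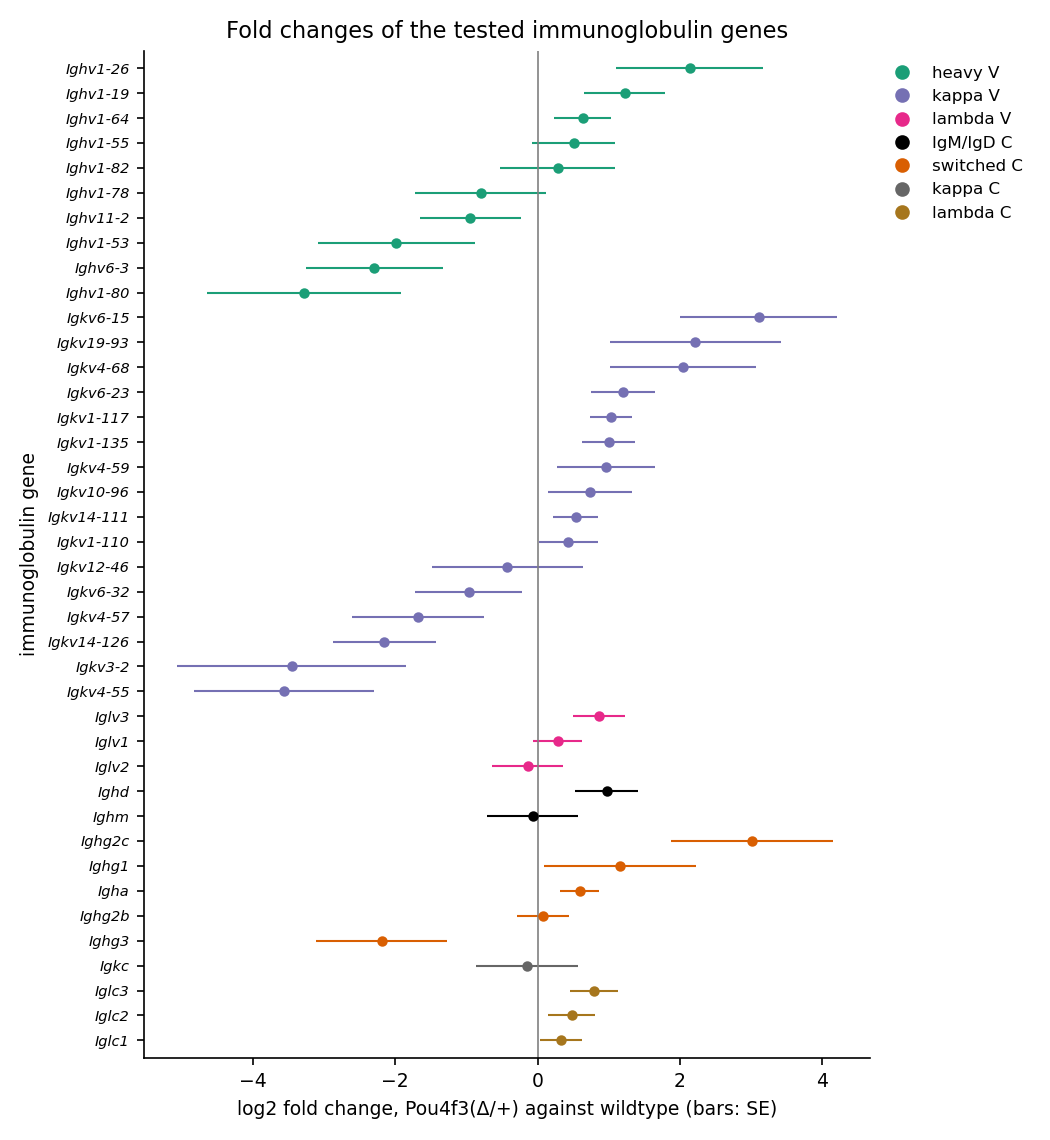
Log2 fold change of *Pou4f3(Δ/+)* against wildtype (horizontal axis, bars give the SE) for the 40 tested immunoglobulin genes, coloured by class. Variable segments run from -3.56 for Igkv4-55 to 3.10 for Igkv6-15 with wide bars, and none of the 40 passed the test.

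The genes that build, signal through or handle antibodies were read from 8 lists of 42 genes, of which 39 were tested. In edgeR's test 0 passed at an adjusted p under 0.05 (smallest 0.643), and 22 had an unadjusted p under 0.05, 21 of them higher in *Pou4f3(Δ/+)*, against 3.50% of all genes tested. The median log2 fold change was 0.73, and every *Pou4f3(Δ/+)* sample lay above every wildtype sample for 14 of the 42, against 6.07%. The lists were chosen with earlier results of these samples known, so their direction is not independent evidence. With DESeq2, 11 of these genes were called, against 0.330% of all genes, and with edgeR without *Pou4f3(Δ/+)* sample 3, 17 were called, against 1.10% of all genes, so the calls depended on the test and on 1 sample.

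The recombination genes are active while a developing B or T cell assembles its receptor. Rag1, the catalytic subunit of the recombinase, was at 3.65, 6.73 and 4.86 FPKM in wildtype samples 3, 4 and 5 and at 9.19, 10.1 and 6.79 FPKM in *Pou4f3(Δ/+)* samples 1, 2 and 3, a log2 fold change of 0.78 (SE 0.22). Dntt, which adds bases at the junctions, was at 2.49, 1.79 and 1.13 FPKM and at 5.46, 5.68 and 3.19 FPKM, a log2 fold change of 1.41 (SE 0.32). Rag2, the other subunit, was at 0.99 to 1.67 FPKM in wildtype and 2.25 to 4.46 FPKM in *Pou4f3(Δ/+)*. All 3 genes were separated between the genotypes, as were 6.07% of all genes tested in that direction.

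The surrogate light chain stands in for a light chain in pre-B cells. Vpreb1 was at 0.87, 1.19 and 0.53 FPKM in wildtype and at 3.32, 3.39 and 1.99 FPKM in *Pou4f3(Δ/+)*, and the log2 fold change was 1.77 (SE 0.40). Igll1, its partner, was at 1.58, 2.79 and 0.41 FPKM and at 5.85, 7.61 and 4.18 FPKM, a log2 fold change of 1.88 (SE 0.56). Vpreb3 was at 10.7 to 18.5 FPKM and 21.9 to 35.8 FPKM, and Vpreb2 was at most 0.6 FPKM and was not tested. The 3 tested genes did not overlap between the genotypes, beside the same 6.07% of all genes.

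The signalling chains of the B cell receptor, Cd79a and Cd79b, had log2 fold changes of 0.92 (SE 0.29) and 0.88 (SE 0.21). Cd79a was at 44.6, 46.0 and 37.1 FPKM in wildtype and at 88.0, 109 and 42.9 FPKM in *Pou4f3(Δ/+)*. It was high in *Pou4f3(Δ/+)* samples 1 and 2, as was Ighd, and within the wildtype range in sample 3, where Ighd was below it. The coreceptor Cd22, the kinase Blk and the adaptor Blnk also had an unadjusted p under 0.05, and the kinase Btk did not. Among the transcription factors, Spib was at 21, 21.7 and 19.0 FPKM and at 39.7, 46.0 and 28.6 FPKM, a log2 fold change of 0.92 (SE 0.18), and Pax5, Pou2af1, Pou2f2 and Bach2 were higher at the same threshold. Ebf1 was not, at 23.2 to 26.8 FPKM in wildtype and 26.2 to 28.3 FPKM in *Pou4f3(Δ/+)*. Of the 6 surface genes of mature B cells, Ms4a1, Tnfrsf13c and Cd74 were higher at an unadjusted p under 0.05, as were 3.50% of all genes tested. Cr2, Fcer2a and Fcmr did not pass that threshold.

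The plasma cell genes had another pattern. Only Irf4, a factor that also acts in B cell precursors, had an unadjusted p under 0.05, with a log2 fold change of 0.97 (SE 0.19). Jchain had a log2 fold change of -0.61 (SE 0.98), which became 1.49 without wildtype sample 4. Mzb1, a chaperone of IgM assembly, was at 3.14, 8.19 and 2.57 FPKM in wildtype and at 5.0, 9.98 and 3.47 FPKM in *Pou4f3(Δ/+)*, again highest in the 2 samples with high secreted Ighm. Xbp1, Sdc1, Prdm1 and Derl3 showed no such pair of samples, at 76.2 to 124, 4.12 to 11.3, 1.60 to 2.70 and 1.63 to 4.57 FPKM. Tnfrsf17, a receptor of plasma cells, was listed above 0 in wildtype sample 4 alone, at 0.86 FPKM.

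Ung, a uracil glycosylase that takes part in class switching, was at 3.33 to 3.71 FPKM in wildtype and 2.99 to 4.35 FPKM in *Pou4f3(Δ/+)*, with no separation between the genotypes. Of the receptors that bind or carry antibody, Fcgr1, the high-affinity IgG receptor of macrophages, was lower at an unadjusted p under 0.05, with 9.58, 7.92 and 12.4 FPKM in wildtype and 5.22, 6.06 and 6.22 FPKM in *Pou4f3(Δ/+)*, and the log2 fold change was -0.76 (SE 0.19). Fcer1g (223 to 283 FPKM over the 6 samples), Fcgr3 (76.1 to 102 FPKM), Fcgr2b and Fcgrt overlapped between genotypes, and Pigr was not tested.

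Markers of other cell types moved with part of this pattern. Of 10 T and NK cell markers, 4 were higher and 0 lower at an unadjusted p under 0.05 (3.50% and 4.14% of all genes), with a summed level of 54.4 to 64.9 FPKM in wildtype and 57.4 to 79.3 FPKM in *Pou4f3(Δ/+)*, and Cd3e was at 1.02, 1.35 and 1.85 FPKM and at 4.28, 6.56 and 1.71 FPKM. Of 7 erythroid markers, 2 were higher, of 7 neutrophil markers 1 was lower, of 6 bone markers 2 were lower, and of 6 macrophage and 6 cochlear markers 0 passed that threshold. No marker of any list was at 0 in all samples. Their part in the immunoglobulin values was not tested.

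**Figure D5:**
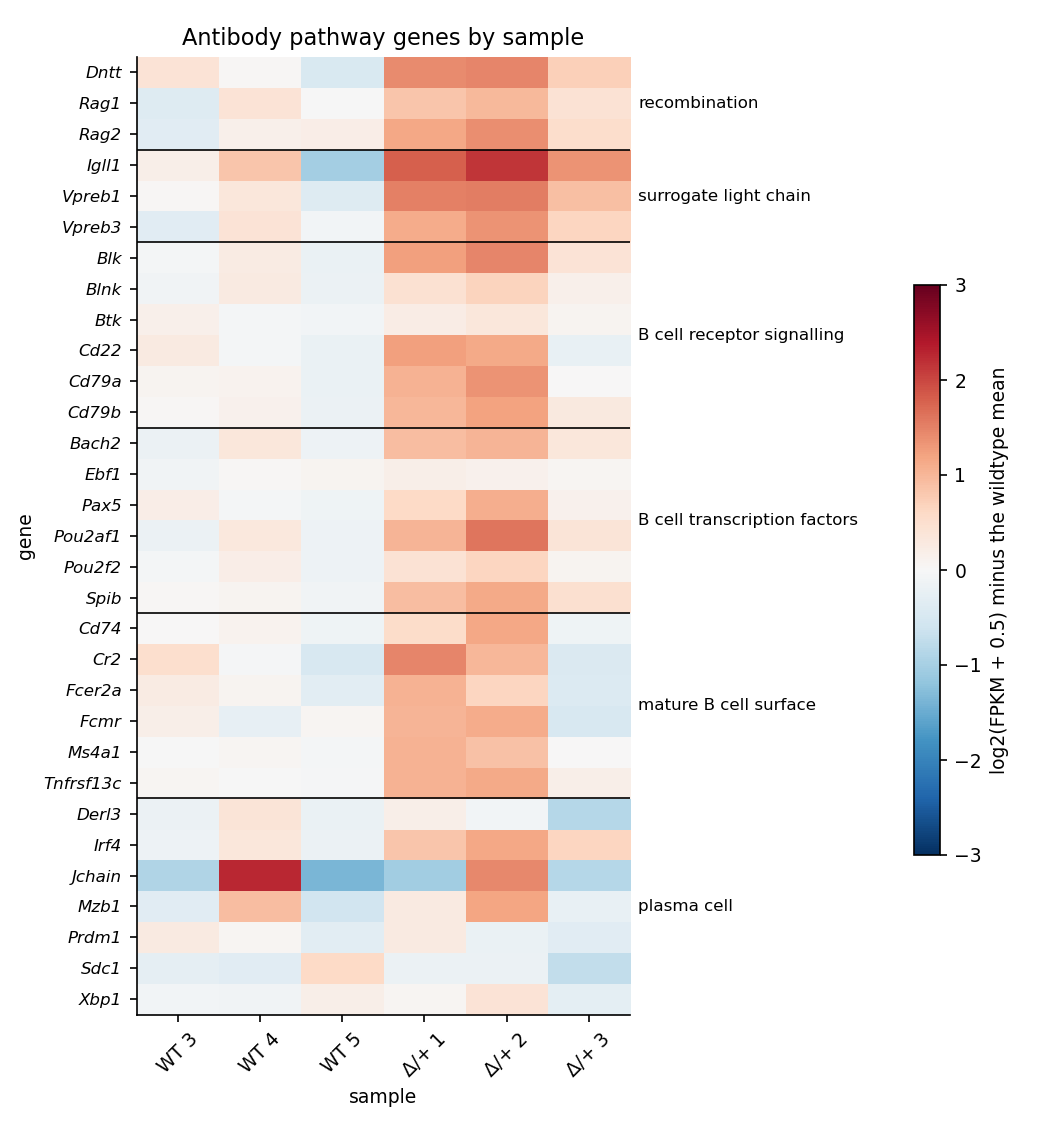
Each cell gives log2(FPKM + 0.5) minus the wildtype mean for tested genes of 6 lists, in the 3 wildtype (WT) and 3 *Pou4f3(Δ/+)* (Δ/+) samples. The B cell lists are high in Δ/+ 1 and Δ/+ 2, while Jchain and Mzb1 of the plasma cell list are highest in WT 4 and Δ/+ 2.

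The minimum count separated genes of nearly equal level. Just inside it, Ighv2-9-1 and Igkv4-63 had mean counts of 22.0 each, from 0 to 94 and from 0 to 127 counts over the samples. Just outside, Ighv8-8 had a mean of 19.8 and Igkv15-103 of 19.5, with 6 to 39 and 4 to 39 counts. The 2 genes inside the limit reached it through 1 sample, *Pou4f3(Δ/+)* sample 2 and wildtype sample 4, while the 2 outside were spread over more samples.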

How the data were processed

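Bulk cochlear RNA of 3 wildtype and 3 *Pou4f3(Δ/+)* mice or pools was sequenced as paired-end reads. The authors deposited, per transcript and sample, expected counts (estimates that need not be whole; 77.8% of those above 0 were not) and FPKM values, which the authors scaled by transcript length and sample total. The aligner and the counting program are not given in the sources used here. The submitters' processing notes list the build mm8 and DESeq2.

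Counts and FPKM were summed over the transcripts of a symbol. Counts were rounded and tested over all genes with edgeR 4.0.16 (R 4.3.3): filterByExpr (minimum count 10, minimum total count 15), TMM, and the quasi-likelihood test between genotypes with Benjamini-Hochberg adjustment. SE is the absolute log2 fold change over the root of the F statistic. The test was first checked on simulated counts. Ratios and shares have no test. Alternatives were DESeq2 1.42.0, its size factors, no filter, limma-trend (limma 3.58.1) on log2(FPKM + 0.5), each sample left out in turn, and 2 pairs of samples left out. Transcripts were matched by identifier to GENCODE M21, whose GRCm38 coordinates and sequences are given. Segment identity is over the last 280 coding bases. For the nearest segment, these were aligned within the other segment's sequence with gaps allowed. Each base changed, inserted or deleted counted against identity.

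Members and lists were chosen with earlier results of these data known. Named genes are all constant regions, the 6 heavy, 6 kappa and 3 lambda segments with the highest mean count, the 5 members with the smallest unadjusted p in each direction, those next to the minimum count, and pathway genes at an unadjusted p under 0.05 or among the 2 most abundant of a list. Other segments were named after their values were seen. Some items that this rule selects are not reported here.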

Additional observations from a re-analysis of the deposited data

Results flagged for a closer look

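Ighe, the constant region of IgE, was outside the set because its mean count was below the minimum. It had 10 counts in *Pou4f3(Δ/+)* sample 3 (0.5 FPKM) and 0 counts in the other 5 samples. It is listed as a signal in 1 genotype that the comparisons did not use. No other matching gene below the minimum reached 10 counts in *Pou4f3(Δ/+)* with 0 counts in every wildtype sample, and no test was made.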

How the results depend on the processing

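The count of immunoglobulin genes called was 0 under DESeq2, DESeq2's size factors, no filter, limma-trend and both settings that leave out a pair of samples, and 0 to 3 when each sample was left out in turn, with 3 only without *Pou4f3(Δ/+)* sample 3. The count of antibody pathway genes called was 0 by edgeR, 11 by DESeq2 (0.330% of all genes called), 1 without a filter (9 of all genes), and 0 to 17 when each sample was left out, with 17 only without *Pou4f3(Δ/+)* sample 3 (1.10% of all genes). Leaving out 1 sample moved the log2 fold change of Ighm between -0.70 and 1.10, of Igkc between -0.94 and 1.13, of Ighv1-80 between -3.85 and 0.54 and of Jchain between -1.96 and 1.49. With limma-trend, Ighm was at 0.15 and Igkc at 0.034. Without wildtype sample 4 and *Pou4f3(Δ/+)* sample 2, a setting chosen after seeing the data, Ighm was at 0.47, Igkc at 0.33, Ighg2c at -0.19, Ighv1-80 at 0.28 and Jchain at 0.14. Without *Pou4f3(Δ/+)* samples 1 and 2, where the lone sample is assumed to vary like the wildtype samples, Ighd was at -0.68, Ighg2c at -0.11, Iglc3 at -0.27, Igkv1-135 at -0.058, Igkv6-15 at -0.16 and Cd79a at -0.0088. Beyond leaving out these samples, the cause was not tested. The differences in summed level, variable to constant ratio, switched to IgM ratio and lambda share stayed within 1 SD of their main values under every alternative run, but all 4 changed sign under some of them. The summed level ranged from -0.70 to 0.87 on the log2 scale. No paired analysis was possible because the genotypes share only the replicate number 3.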
